A study of Mus musculus with 12 samples.

Results

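Circadian clock genes were followed across the 4 groups of an adrenal medulla study in male C57Bl6 mice. The genes are the period genes Per1, Per2 and Per3, the cryptochrome genes Cry1 and Cry2, the REV-ERB genes Nr1d1 and Nr1d2, the PAR bZIP genes Dbp and Tef, and Arntl (also called Bmal1). They were chosen by symbol, with earlier results of these data known. All 10 of the 10 were annotated on the array, each by 1 probe set, among 19572 probe sets with a gene symbol (19505 genes). Affymetrix arrays were hybridised with RNA of dissected medullae, 1 array per animal, and each value is the authors' log2 intensity of a probe set after RMA. The groups were germ-free insulin, germ-free saline, colonized insulin and colonized saline, with 3 animals each. Germ-free animals had no gut flora, and the colonized controls had a normal one. All animals fasted for 3 h, received regular human insulin at 2 IU/kg or the same volume of saline into the peritoneum, and were killed 90 min later. The age of the mice and the time of day at which tissue was taken are not given in the sources used here. No label names a transgene, a batch or a pairing of animals.

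The clock is a feedback loop of transcription. ARNTL and CLOCK bind E-boxes and drive the Per, Cry and Nr1d genes and Dbp, PER and CRY proteins then repress ARNTL and CLOCK, and the REV-ERB proteins repress Arntl at sites that ROR proteins activate. DBP and TEF activate genes through D-boxes, which NFIL3 represses. In the adrenal gland the clock is known for timing steroid output, and Per1 is also known as a gene that cyclic AMP signalling through CREB and glucocorticoids can induce.

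Every comparison was fitted with limma on all 12 arrays, and a gene is called where its p, adjusted by the Benjamini-Hochberg method over the 19572 probe sets, was under 0.05. Differences are on the log2 scale, insulin minus saline or germ-free minus colonized, with standard errors (SE) from that fit. A mean insulin effect is the average of the insulin effects in germ-free and colonized mice, and a mean germ-free effect the average of the germ-free effects after insulin and after saline. Levels of different probe sets have no common scale, so no order of levels between genes is given. Across the 23 background rows the array medians were 3.90 to 4.18, and the lowest clock gene value was 6.03 (Cry1).

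Some features of the arrays touch all results. Colonized saline animal 2 stood apart. Arrays of one group correlated across probe sets at r = 0.954 to 0.993, and at 0.987 to 0.993 without it. The median over all rows of the table was 6.45 to 6.49 in germ-free arrays and 6.26 to 6.33 in colonized arrays, and over the named probe sets 6.78 to 6.84 in germ-free and 6.85 to 6.94 in colonized arrays. Any difference in handling or processing between the colonization states cannot be told apart from colonization. The mean log2 level of 11 chromaffin markers (12 listed), the defining genes of this tissue such as Th and Dbh, was 10.23 to 10.73 in germ-free insulin, 11.00 to 11.15 in germ-free saline, 11.24 to 11.71 in colonized insulin and 10.94 to 11.50 in colonized saline arrays. The 10 adrenal cortex markers averaged 12.68 to 12.72, 12.72 to 12.74, 12.59 to 12.65 and 12.24 to 12.60 in the same order of groups, so tissue of the cortex was present in all samples. The 10 adipocyte markers averaged 10.56 to 10.95, 9.40 to 10.07, 6.74 to 9.04 and 7.08 to 10.74, and the 8 liver markers 7.07 to 8.91, 8.70 to 10.25, 6.37 to 6.58 and 6.20 to 11.00. The 7 intestine markers averaged 7.54 to 9.39 in germ-free saline arrays and 5.27 to 5.65 in the other groups, and the 4 pituitary markers 7.41 to 8.90 in germ-free insulin arrays and 4.88 to 5.87 in the other groups. In such bulk samples fewer cells of a type and less RNA per cell cannot be told apart.

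**Figure D1:**
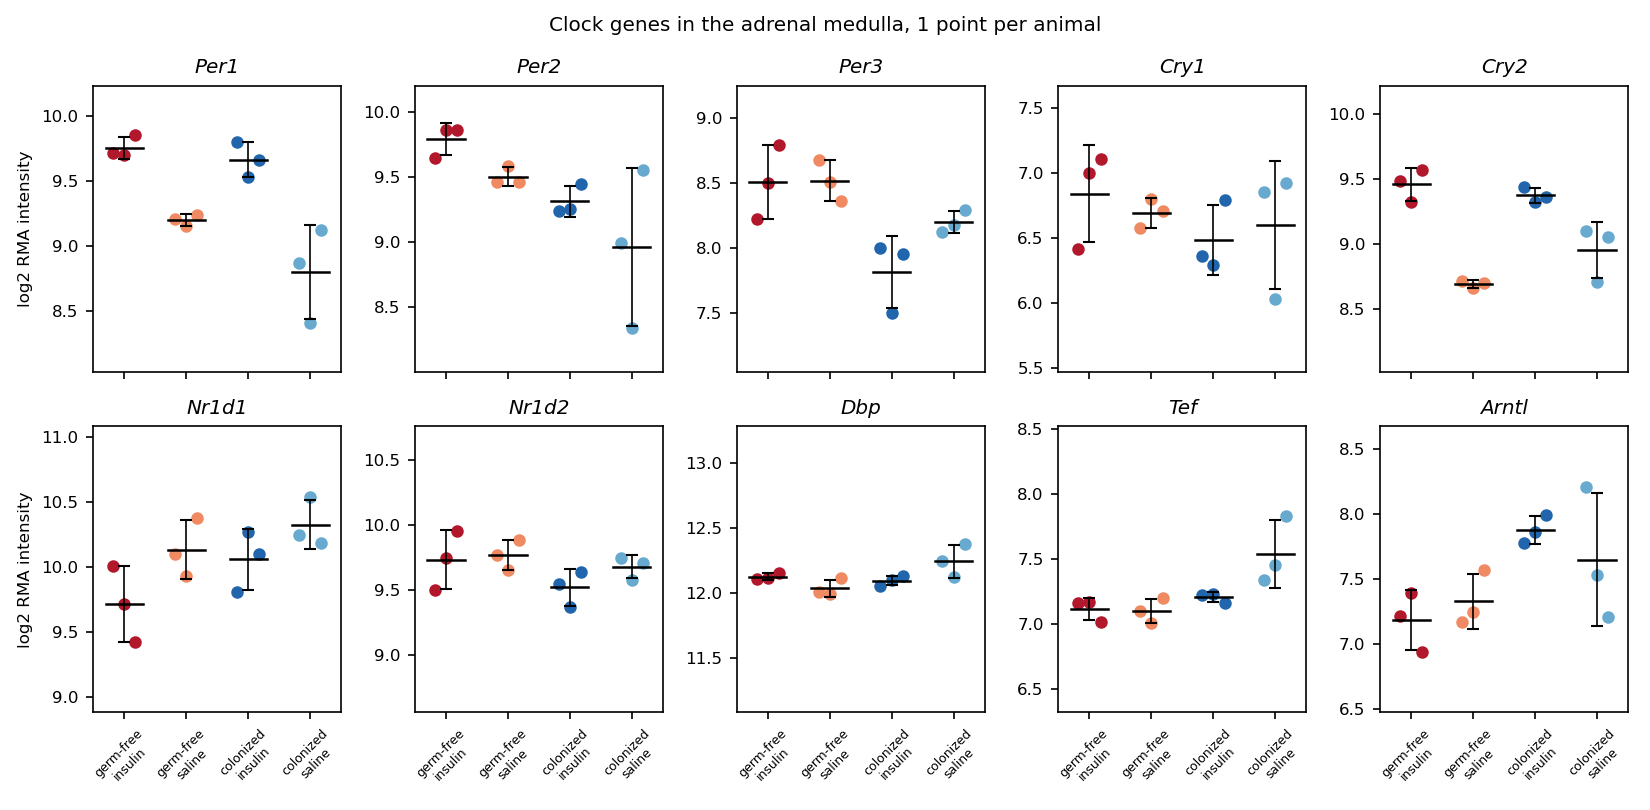
Log2 RMA intensity of the 10 clock genes, 1 point per animal, in germ-free insulin, germ-free saline, colonized insulin and colonized saline mice (3 animals each). Lines are group means and bars are SDs, and each panel spans the same number of log2 units. All insulin arrays lie above the saline arrays of their own colonization state for Per1 and Cry2, Per3 lies higher in germ-free arrays, and the widest spread is that of Per2 in colonized saline mice (8.34 to 9.55).

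Insulin was compared with saline within each colonization state, which asks how the gland's response to low blood sugar differs with colonization. Of the clock genes Per1 and Cry2 rose with insulin, and these were the calls for the mean insulin effect, 2 of 10, both higher, against 0.255% of all probe sets called higher and 0.163% called lower (with each array centred on its median, 54 probe sets were called higher and 21 lower, in place of 50 and 32). In germ-free mice 1 of 10, Cry2, was called higher, against 0.143% of probe sets higher and 0.296% lower. In colonized mice 0 of 10 were called by limma, against 0.112% of probe sets called higher and 0.0409% lower. An unadjusted limma p under 0.05 was found there for 4 of the 10, and for 2305 of all 19572 probe sets. The median difference of the 10 genes for the mean insulin effect was -0.01, beside 0.01 over all genes, so the set did not shift as a whole in one direction.

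Per1 encodes a repressor of the loop. It measured 9.71, 9.70 and 9.85 in germ-free insulin arrays against 9.20, 9.15 and 9.24 in germ-free saline arrays, and 9.80, 9.53 and 9.66 in colonized insulin arrays against 8.87, 8.41 and 9.12 in colonized saline arrays. Insulin arrays lay above saline arrays in each state without overlap. The mean insulin effect on Per1 was 0.71 ± 0.11 (SE, limma adjusted p = 0.0147), a 1.64-fold higher level. In germ-free mice the difference was 0.56 ± 0.15 (adjusted p = 0.227), and in colonized mice it was 0.87 ± 0.15 (adjusted p = 0.0517), neither of them called. Without colonized saline animal 2, the lowest array, the mean effect was 0.61 (adjusted p = 0.00784) and the effect in colonized mice 0.67 (adjusted p = 0.0735). The call of the mean effect was lost with the mean level of the liver markers as a covariate (0.55, adjusted p = 0.0742) and without germ-free saline animal 9 (0.72, adjusted p = 0.0592), germ-free insulin animal 11 (0.72, adjusted p = 0.0507) or germ-free insulin animal 12 (0.69, adjusted p = 0.0547).

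RefSeq's promoter table (GRCm38.p6, 250 bases before to 50 after a start, read along the gene) holds windows at 2 starts of Per1. Both are shown because Per1 is known as a target of both the clock and CREB. Capitals mark matches to the E-box CACGTG, the core TGACG of the cyclic AMP response element (CRE) or AGGTCA, the core bound by REV-ERB and ROR proteins, on either strand.
Per1 upstream start, chr11:69098699-69098998, plus strand: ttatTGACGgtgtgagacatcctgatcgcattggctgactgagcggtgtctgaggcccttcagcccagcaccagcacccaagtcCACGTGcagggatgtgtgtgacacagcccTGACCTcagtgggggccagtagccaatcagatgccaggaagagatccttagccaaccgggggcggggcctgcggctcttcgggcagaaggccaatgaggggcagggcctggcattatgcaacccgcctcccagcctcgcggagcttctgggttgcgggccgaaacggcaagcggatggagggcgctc
Per1 downstream start, chr11:69099902-69100201, plus strand: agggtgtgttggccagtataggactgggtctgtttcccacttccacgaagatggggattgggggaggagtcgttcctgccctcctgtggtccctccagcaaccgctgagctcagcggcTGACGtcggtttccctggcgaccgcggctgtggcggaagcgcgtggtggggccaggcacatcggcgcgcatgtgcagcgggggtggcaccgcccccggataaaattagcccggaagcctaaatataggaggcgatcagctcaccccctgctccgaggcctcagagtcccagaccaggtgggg
The upstream window holds the E-box 166 bases before its start, a TGACG 246 bases before it and AGGTCA on the opposite strand, and the downstream window a TGACG 132 bases before its start. Neither holds the full CRE, TGACGTCA, which contains TGACG. Of all 32851 windows of this length in the table, 7.15% hold CACGTG, 20.8% TGACG, 1.79% TGACGTCA and 16.3% AGGTCA. A match describes these letters and is not a measured binding site.

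Cry2, a cryptochrome that represses ARNTL and CLOCK together with PER proteins, measured 9.49, 9.32 and 9.57 in germ-free insulin arrays against 8.72, 8.66 and 8.71 in germ-free saline arrays. It measured 9.44, 9.32 and 9.37 in colonized insulin arrays against 9.11, 8.71 and 9.06 in colonized saline arrays. Insulin arrays were again above saline arrays in each state, and colonized saline animal 2 alone reached the level of germ-free saline mice. The mean insulin effect was 0.59 ± 0.08 (limma adjusted p = 0.0102), a 1.51-fold higher level. It was 0.77 ± 0.12, a 1.70-fold higher level, in germ-free mice (adjusted p = 0.0137) and 0.42 ± 0.12 in colonized mice (adjusted p = 0.226, not called). The mean effect was called in each of the 22 alternatives run, the fits with cortex, adipocyte, liver or chromaffin marker levels as a covariate and those without single arrays among them. Intestine and pituitary marker levels were not used as covariates. For insulin in germ-free mice 5 of 7 intestine markers were called lower and 4 of 4 pituitary markers higher. The call in germ-free mice was lost with the chromaffin covariate (0.94, adjusted p = 0.101) and without germ-free saline animals 7, 8 or 9 or germ-free insulin animals 10 or 12, taken out singly (0.71 to 0.78, adjusted p = 0.0501 to 0.0843).

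The RefSeq window of Cry2 is shown for comparison with Per1, the other clock gene that insulin raised. Capitals mark CACGTT, a variant of the E-box, and TGACG, both found here on the opposite strand.
Cry2, chr2:92434020-92434319, minus strand: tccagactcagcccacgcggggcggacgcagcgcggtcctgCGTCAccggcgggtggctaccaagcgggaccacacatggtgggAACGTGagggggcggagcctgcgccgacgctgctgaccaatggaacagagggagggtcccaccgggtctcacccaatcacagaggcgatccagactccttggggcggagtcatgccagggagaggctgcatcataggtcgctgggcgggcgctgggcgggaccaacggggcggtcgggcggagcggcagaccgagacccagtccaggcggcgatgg
The E-box variant lies 166 and the TGACG 209 bases before the start. Among all windows 4.68% hold CACGTT. Per1 and Cry2 thus share TGACG within these windows, as does Cry1, which was not called. It was found in 3 of the 9 clock genes with a window and in 23% of all genes with a window.

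Cry1, the other cryptochrome, measured 6.41, 7.00 and 7.10 in germ-free insulin, 6.57, 6.80 and 6.71 in germ-free saline, 6.36, 6.29 and 6.79 in colonized insulin and 6.85, 6.03 and 6.92 in colonized saline arrays. The groups overlapped in every comparison, with a mean insulin effect of 0.01 (95% interval -0.36 to 0.39). Per2, a period gene needed for stable rhythms in mice, measured 9.65, 9.86 and 9.87 in germ-free insulin against 9.46, 9.59 and 9.46 in germ-free saline arrays, and 9.24, 9.25 and 9.45 in colonized insulin against 9.00, 8.34 and 9.55 in colonized saline arrays. The mean insulin effect on Per2 was 0.32 ± 0.16 (limma adjusted p = 0.529), not called, and the colonized saline arrays spanned all colonized insulin arrays.

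Per3, the period gene least needed for rhythm in mice, measured 8.22, 8.50 and 8.80 in germ-free insulin against 8.68, 8.51 and 8.37 in germ-free saline arrays, and 8.00, 7.50 and 7.96 in colonized insulin against 8.13, 8.18 and 8.30 in colonized saline arrays. The insulin arrays lay below the saline arrays in colonized mice and overlapped with them in germ-free mice. The differences, -0.38 ± 0.17 in colonized mice (limma adjusted p = 0.398) and -0.01 ± 0.17 in germ-free mice, were not called.

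The REV-ERB genes encode nuclear receptors that repress Arntl. Nr1d1 measured 10.01, 9.72 and 9.43 in germ-free insulin against 10.10, 9.93 and 10.38 in germ-free saline arrays, and 9.81, 10.27 and 10.10 in colonized insulin against 10.25, 10.54 and 10.19 in colonized saline arrays. The groups overlapped in both states, and its mean insulin effect of -0.34 ± 0.13 was not called (limma adjusted p = 0.347). Nr1d2 measured 9.50, 9.75 and 9.95 in germ-free insulin against 9.77, 9.66 and 9.88 in germ-free saline arrays, and 9.55, 9.37 and 9.64 in colonized insulin against 9.75, 9.58 and 9.71 in colonized saline arrays, with overlap in both states. Its mean insulin effect was -0.10 ± 0.09 (95% interval -0.30 to 0.10), not called.

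The PAR bZIP genes encode activators of D-box genes. Dbp varied least of the 10 genes, over 0.38 log2 units in the 12 arrays. It measured 12.11, 12.12 and 12.16 in germ-free insulin against 12.01, 11.99 and 12.11 in germ-free saline arrays, and 12.06, 12.10 and 12.13 in colonized insulin against 12.24, 12.12 and 12.37 in colonized saline arrays. Its mean insulin effect was -0.03 ± 0.07 (95% interval -0.18 to 0.11), not called. Tef measured 7.16, 7.16 and 7.01 in germ-free insulin against 7.10, 7.01 and 7.19 in germ-free saline arrays, and 7.22, 7.23 and 7.16 in colonized insulin against 7.33, 7.45 and 7.83 in colonized saline arrays. The colonized saline arrays stood above the 9 others for Tef, with animal 3 highest. The insulin difference of Tef was -0.33 ± 0.13 in colonized mice (limma adjusted p = 0.346) and 0.01 ± 0.13 in germ-free mice, neither called. For Arntl, the activator of the loop, the mean insulin effect was 0.04 ± 0.15 (95% interval -0.29 to 0.38), not called.

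**Figure D2:**
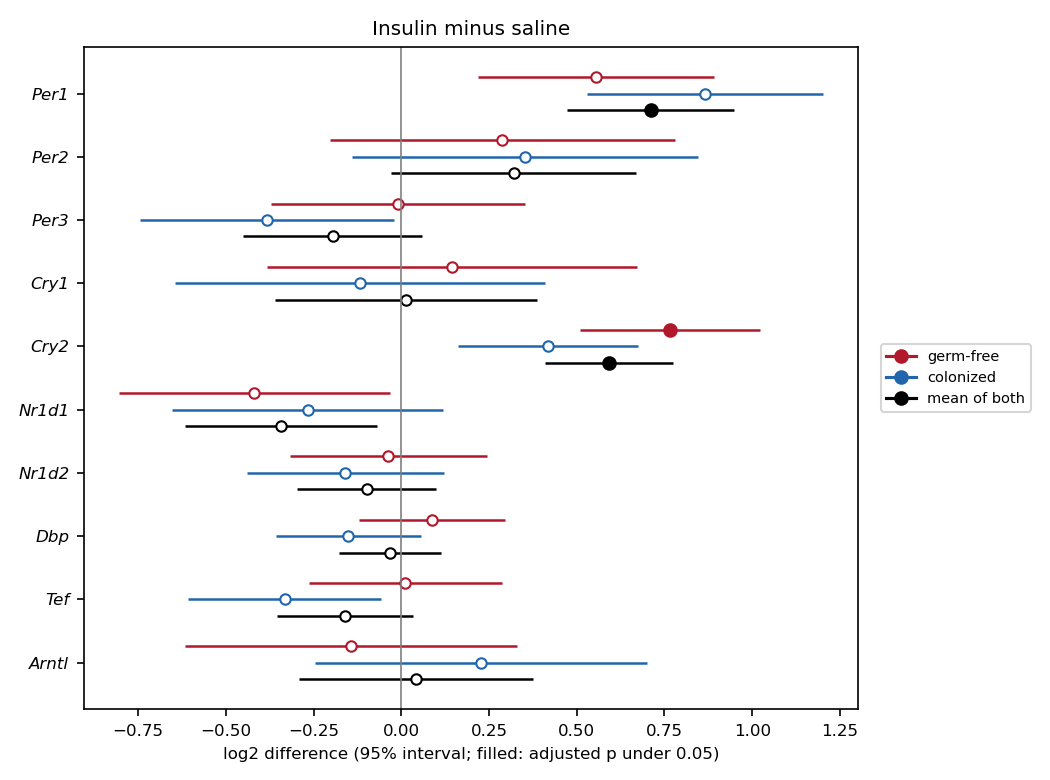
Insulin minus saline on the log2 scale for the 10 clock genes in germ-free mice, in colonized mice and as the mean of both (12 arrays, 3 per group). Points are limma estimates, lines are 95% intervals and filled points have an adjusted p under 0.05. Cry2 (0.77 in germ-free mice, 0.59 as the mean) and Per1 (0.71 as the mean) are the filled points.

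The difference of the insulin effects, germ-free minus colonized, was called for 0 of the 10 genes by limma, and none had an unadjusted p under 0.05. Over all probe sets 0.0102% were called higher and 0.0255% lower (2 and 5, with median centring 0 and 2). The difference was -0.31 for Per1 (95% interval -0.78 to 0.17), 0.35 for Cry2 (-0.02 to 0.71), 0.37 for Per3 (-0.14 to 0.88), 0.34 for Tef (-0.04 to 0.73) and 0.24 for Dbp (-0.05 to 0.53). It was -0.06 for Per2 (-0.76 to 0.63), 0.26 for Cry1 (-0.48 to 1.01), -0.15 for Nr1d1 (-0.70 to 0.39), 0.12 for Nr1d2 (-0.27 to 0.52) and -0.37 for Arntl (-1.04 to 0.30). These intervals include 0 and, for each of the 10 genes, also differences of 0.52 or more in size, so equal effects are not shown.

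Germ-free mice were compared with colonized mice after each injection, which asks how the resting and the challenged gland differ with colonization. Per2 and Per3 were higher and Arntl was lower in germ-free mice by the mean germ-free effect, 3 of 10 called, 2 of them higher. That effect was called higher for 6.14% and lower for 11.5% of all probe sets, so the 1 of 10 called lower is near the share over all probe sets. Second quantile normalization of the table gave 1069 probe sets higher and 3860 lower and median centring 1850 higher and 1389 lower, in place of 1201 and 2253. The median over all genes was -0.11 with the second normalization and 0.04 with centring, and the signs of Per2, Per3 and Arntl held under both. After insulin 1 of 10 was called, Per3, higher, against 2.62% of probe sets higher and 5.15% lower (513 and 1008, and with median centring 685 and 654). After saline 0 of 10 were called by limma, against 2.82% of probe sets higher and 4.08% lower (552 and 799). These numbers were 510 and 1344 with second quantile normalization and 769 and 428 with median centring. An unadjusted limma p under 0.05 after saline was found for 5 of the 10, and for 4702 of all 19572 probe sets. The median mean germ-free effect of the 10 genes was 0.03, beside -0.03 over all genes, and the median size without sign was 0.26, beside 0.15.

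The arrays of Per3 given above lay higher in germ-free than in colonized mice, without overlap, after insulin (8.22 to 8.80 against 7.50 to 8.00) and after saline (8.37 to 8.68 against 8.13 to 8.30). The difference was 0.69 ± 0.17 after insulin (limma adjusted p = 0.0269), a 1.61-fold higher level, and 0.32 ± 0.17 after saline (adjusted p = 0.271, not called). The mean germ-free effect was 0.50 ± 0.12 (adjusted p = 0.0124) and was called without each single array in turn (0.42 to 0.57). It was not called with marker levels as a covariate for chromaffin cells (0.26, adjusted p = 0.517), adipocytes (0.41, adjusted p = 0.139) or adrenal cortex (0.40, adjusted p = 0.192). Over the same contrast 7 of 11 chromaffin markers were called lower, 4 of 10 adipocyte markers, 7 of 7 intestine markers and 4 of 4 pituitary markers higher. The call after insulin was lost with the chromaffin covariate (0.28, adjusted p = 0.789), with the adipocyte covariate (0.53, adjusted p = 0.382) and without colonized insulin animals 4 or 5 or germ-free insulin animals 11 or 12, taken out singly (0.53 to 0.78, adjusted p = 0.0528 to 0.113).

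The RefSeq window of Per3 is shown because it holds the D-box, TTATGTAA in capitals, the site of the DBP, TEF, HLF and NFIL3 family.
Per3, chr4:151044616-151044915, minus strand: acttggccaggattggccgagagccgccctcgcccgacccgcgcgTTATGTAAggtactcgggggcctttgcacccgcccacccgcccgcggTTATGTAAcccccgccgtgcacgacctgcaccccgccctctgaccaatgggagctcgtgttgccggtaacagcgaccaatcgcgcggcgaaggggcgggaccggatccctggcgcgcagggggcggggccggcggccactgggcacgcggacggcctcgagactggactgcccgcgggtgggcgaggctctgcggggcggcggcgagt
The matches lie 205 and 158 bases before the start. TTATGTAA occurs in 0.938% of all windows and in 1 of the 9 clock genes with a window. No clock gene window held the variant TTACGTAA, which 0.119% of all windows hold.

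Per2, by the values above, was higher in all germ-free insulin arrays than in any colonized insulin array (9.65 to 9.87 against 9.24 to 9.45), while after saline the germ-free values (9.46 to 9.59) lay within the colonized range (8.34 to 9.55) except for the highest. Its mean germ-free effect was 0.51 ± 0.16 (limma adjusted p = 0.0455), a 1.42-fold higher level. Without colonized saline animal 2, which had the lowest Per2 value, the effect was 0.35 (adjusted p = 0.0259). Its sign turned with the adrenal cortex covariate (-0.13, adjusted p = 0.457). The call was lost in 10 of the 12 fits without 1 array, kept without colonized saline animal 2 or 3, with adjusted p values up to 0.095 when lost. Differences within a treatment, 0.54 ± 0.23 after saline (adjusted p = 0.167) and 0.48 ± 0.23 after insulin (adjusted p = 0.238), were not called.

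Arntl measured 7.22, 7.40 and 6.94 in germ-free insulin against 7.78, 7.86 and 7.99 in colonized insulin arrays, and 7.17, 7.25 and 7.57 in germ-free saline against 8.21, 7.53 and 7.21 in colonized saline arrays. The germ-free values lay below the colonized ones after insulin and overlapped with them after saline, where colonized animal 1 was highest of all 12. The mean germ-free effect was -0.51 ± 0.15 (limma adjusted p = 0.0397), a ratio of 0.703. The difference was -0.69 ± 0.22 after insulin (adjusted p = 0.0729) and -0.32 ± 0.22 after saline (adjusted p = 0.404), neither called. The mean effect kept its sign in the 22 alternatives run (-0.62 to -0.22) and its call in 9 of them, and without colonized saline animal 1 it was -0.37 (adjusted p = 0.04997). The call was lost without colonized insulin animals 4, 5 or 6, germ-free saline animals 7 or 8, or germ-free insulin animals 10 or 12, taken out singly (-0.53 to -0.45, adjusted p = 0.0629 to 0.0938). With the chromaffin covariate it was -0.22 (adjusted p = 0.695) and with the adipocyte covariate -0.24 (adjusted p = 0.458).

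The RefSeq window of Arntl is shown for the AGGTCA core, in capitals, since REV-ERB and ROR proteins are known to act on this gene.
Arntl, chr7:113207261-113207560, plus strand: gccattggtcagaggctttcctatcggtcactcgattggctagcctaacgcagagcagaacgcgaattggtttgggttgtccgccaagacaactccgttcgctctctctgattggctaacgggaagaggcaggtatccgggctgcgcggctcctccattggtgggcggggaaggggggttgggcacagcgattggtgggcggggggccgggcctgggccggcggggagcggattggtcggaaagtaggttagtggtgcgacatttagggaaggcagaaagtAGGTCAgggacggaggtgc
The core lies within the transcribed part, and the window of the other Arntl start in the table ends before it. Nr1d2 and the upstream window of Per1 also hold AGGTCA. Of the 10 genes 9 had a window, and for Dbp no motif searched was found.

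The remaining clock genes were not called for colonization. Tef was at -0.44 ± 0.13 after saline (limma adjusted p = 0.0581) and -0.09 ± 0.13 after insulin, with a mean germ-free effect of -0.27 ± 0.09 (adjusted p = 0.0583). The difference of Tef after saline and its insulin difference in colonized mice use the same 3 colonized saline arrays, which were the highest for this gene. So do these contrasts for every gene. Per1 was at 0.40 ± 0.15 after saline (adjusted p = 0.139), without overlap of the groups, and at 0.09 ± 0.15 after insulin. Dbp was at -0.21 ± 0.09 after saline (adjusted p = 0.204) and at 0.03 ± 0.09 after insulin, and Cry2 at -0.26 ± 0.12 after saline (adjusted p = 0.197) and at 0.09 ± 0.12 after insulin. The mean germ-free effect was 0.23 (95% interval -0.15 to 0.60) for Cry1, -0.27 (-0.54 to 0.01) for Nr1d1 and 0.15 (-0.05 to 0.35) for Nr1d2.

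**Figure D3:**
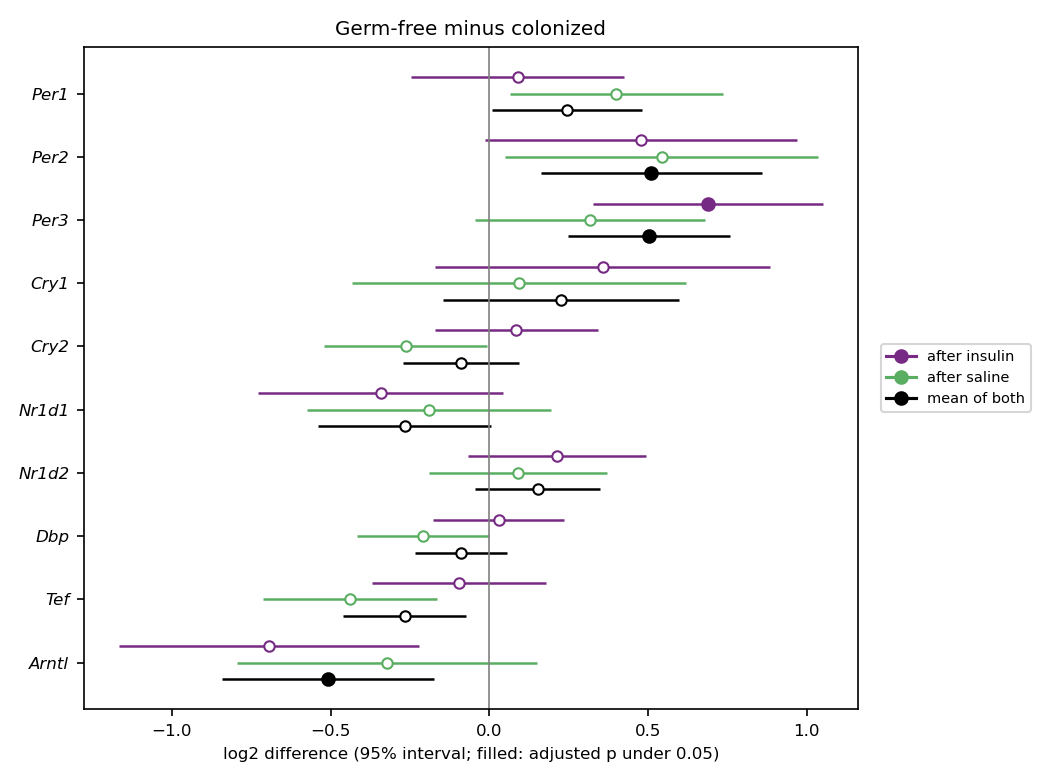
Germ-free minus colonized on the log2 scale for the 10 clock genes after insulin, after saline and as the mean of both (12 arrays, 3 per group). Points are limma estimates, lines are 95% intervals and filled points have an adjusted p under 0.05. Per2 (0.51) and Per3 (0.50) lie to the right and Arntl (-0.51) to the left of 0 by the mean effect, and Per3 is also filled after insulin (0.69).

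Of 21 other clock genes listed, 19 were measured. By the mean germ-free effect 3 of 19 were called higher and 3 lower, against 6.14% and 11.5% of all probe sets, so the count called lower is near that share. After insulin 2 were called higher and 3 lower, against 2.62% and 5.15%, and after saline 1 higher and 1 lower, against 2.82% and 4.08%, which is near the share over all probe sets. The median mean germ-free effect of the 19 was -0.14, beside -0.03 over all genes. By the mean insulin effect 1 of 19 was called higher and 0 lower, against 0.255% and 0.163% of all probe sets. The median was 0.08, beside 0.01 over all genes. For insulin within germ-free or colonized mice alone limma called 0 of 19, with 4 and 5 at an unadjusted p under 0.05. Of all 19572 probe sets, 1626 and 2305 had such a p in these contrasts.

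Nfil3, which encodes the repressor of D-box genes, was called both for insulin and for colonization. It measured 8.68, 8.82 and 9.23 in germ-free insulin, 8.42, 8.24 and 7.83 in germ-free saline, 8.04, 7.59 and 7.41 in colonized insulin and 6.26, 6.99 and 6.66 in colonized saline arrays. Every insulin array lay above the saline arrays of its state, and every germ-free array above the colonized arrays of its treatment. The mean insulin effect was 0.89 ± 0.16 (limma adjusted p = 0.0363) and the mean germ-free effect 1.38 ± 0.16 (adjusted p = 0.000387). The germ-free effect was 1.53 ± 0.23 after saline and 1.23 ± 0.23 after insulin, both called. In alternatives other than leaving out single arrays, the call after insulin held in 9 of 11 (0.65 to 1.33, adjusted p up to 0.619). The call of the mean insulin effect held in 8 of 10 such alternatives. The call for insulin was kept without colonized saline animal 2, colonized insulin animal 6 or germ-free saline animal 7 and lost without any other single array (0.80 to 0.98 over all 12, adjusted p up to 0.118), while the mean germ-free effect was called without each array in turn (1.28 to 1.47) and lost with the chromaffin covariate (1.04, adjusted p = 0.0929).

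Hlf, the third PAR bZIP gene, fell by the mean germ-free effect, -0.43 ± 0.11 (limma adjusted p = 0.0172). Its arrays measured 6.85, 6.79 and 7.22 in germ-free insulin, 6.99, 7.04 and 7.28 in germ-free saline, 7.37, 7.22 and 7.66 in colonized insulin and 7.66, 7.37 and 7.49 in colonized saline mice. Ciart, which encodes a repressor of ARNTL and CLOCK, was higher in germ-free mice by 0.53 ± 0.15 (adjusted p = 0.0281) and after insulin by 0.75 ± 0.21 (adjusted p = 0.0497). Usp2, a deubiquitinase of clock proteins, was higher by 0.35 ± 0.11 (adjusted p = 0.0468). With the cortex covariate the difference was 0.17 for Ciart and 0.05 for Usp2, neither called. The Hlf call was lost with each marker covariate (-0.57 to -0.32). The Usp2 call was kept in 1 of the 12 fits without 1 array (without colonized saline animal 3, 0.45) and the Ciart call of the mean effect in 7 of them, lost without colonized insulin animals 4 or 5, germ-free saline animal 7 or germ-free insulin animals 10 or 12. After insulin the Ciart call was kept without colonized saline animal 2 or colonized insulin animal 6 alone. Timeless, which in mammals is known mainly for DNA replication, was lower by 1.37 ± 0.21 on the log2 scale (adjusted p = 0.00152), a call lost with the chromaffin covariate (-1.03, adjusted p = 0.177).

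Rorb, of the ROR family, was called lower for colonization, with a mean germ-free effect of -0.58 ± 0.17 (limma adjusted p = 0.0362). Its other probe set was at -0.27 ± 0.16 (adjusted p = 0.294). The germ-free difference of Rorb was -1.12 ± 0.24 after insulin (adjusted p = 0.018, called) and -0.05 ± 0.24 after saline (adjusted p = 0.932, not called). After insulin the other probe set was at -0.36 ± 0.23 (adjusted p = 0.399). The call after insulin was kept in 8 of the 12 fits without 1 array and in 8 of 10 other alternatives. The Rorb call of the mean effect was kept without colonized saline animals 1, 2 or 3 or colonized insulin animal 6 and lost without any other single array (-0.69 to -0.42 over all 12). It was also lost with the adipocyte (-0.16) and chromaffin (-0.19) covariates. Rora has 3 probe sets, of which the dimmest stood apart. By the mean germ-free effect the brightest was at 0.26 ± 0.10 (adjusted p = 0.106), the next at 0.19 ± 0.12 (adjusted p = 0.331) and the dimmest at 1.43 ± 0.12 (adjusted p = 7.14e-05). Bhlhe40, which represses at E-boxes, was lower after insulin, -0.80 ± 0.20 (adjusted p = 0.0337), a sign that turned with the chromaffin covariate (0.18) and a call that was lost without colonized insulin animals 4 or 5 or any germ-free insulin animal (10, 11 or 12). Clock, the partner of ARNTL, was not called, with a mean germ-free effect of 0.13 ± 0.08 and a mean insulin effect of 0.16 ± 0.08.

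**Figure D4:**
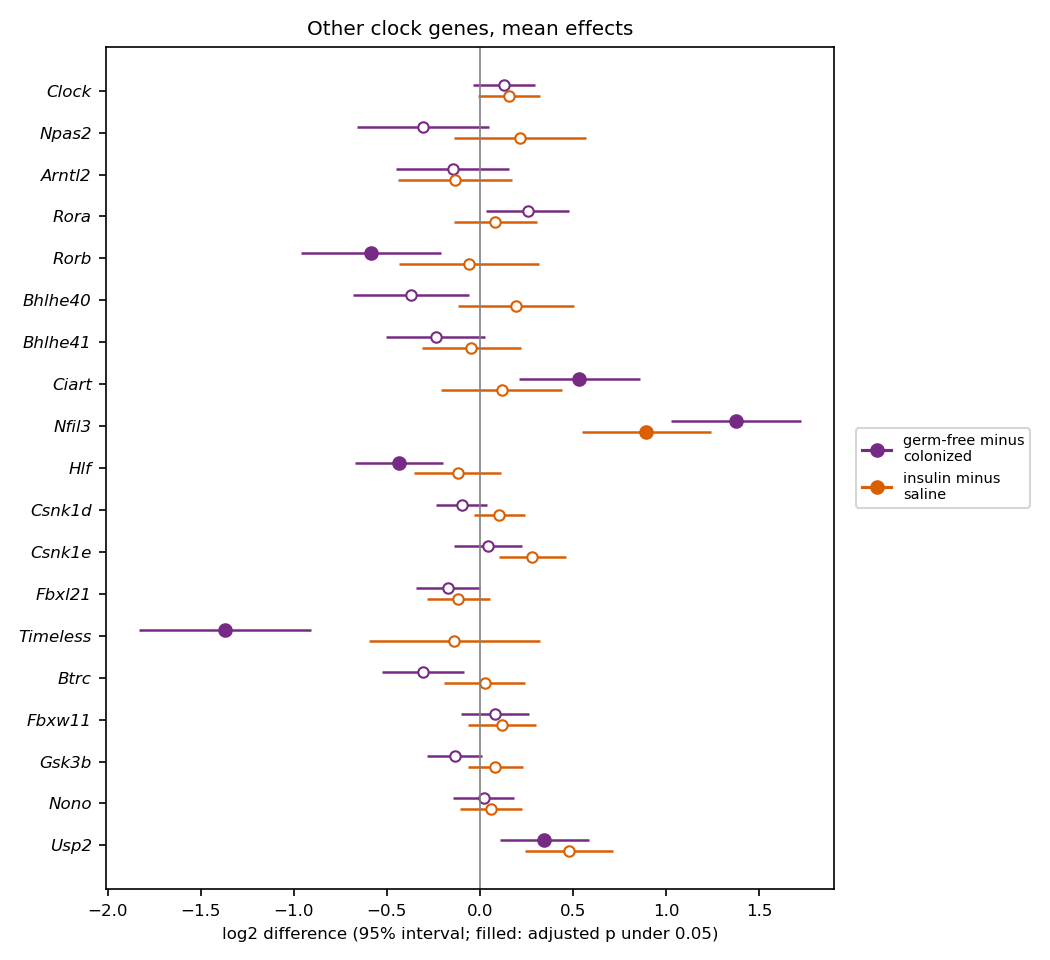
Mean germ-free effect (germ-free minus colonized) and mean insulin effect (insulin minus saline) on the log2 scale for the 19 other clock genes measured. Points are limma estimates from 12 arrays, lines are 95% intervals and filled points have an adjusted p under 0.05. Nfil3 is filled for both effects (1.38 and 0.89), and Timeless has the most negative germ-free effect (-1.37).

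Genes downstream of the clock and of signals that reach Per1 were counted as well. These lists, like that of the other clock genes, were chosen with earlier results of these data known. Their counts and medians therefore describe the listed genes only. Of 9 clock output genes measured (10 listed), 1 was called higher and 1 lower by the mean germ-free effect, Alas1 of haem synthesis (0.42 ± 0.10, limma adjusted p = 0.0136) and Lonrf3 (-0.55 ± 0.13, adjusted p = 0.013), and 0 by the mean insulin effect, with 3 at an unadjusted p under 0.05. Over all probe sets 6.14% were called higher and 11.5% lower by the mean germ-free effect, so these counts are near the share over all probe sets. For the mean insulin effect 2021 of all 19572 probe sets had an unadjusted limma p under 0.05. Alas1 was at 0.13 with the cortex covariate and Lonrf3 at -0.16 with the chromaffin covariate, neither called. Their medians were -0.05 for the mean germ-free and -0.04 for the mean insulin effect. Pdk4, a kinase gene of fuel choice that is also in the glucocorticoid list, as Tsc22d3 is, was called higher in germ-free mice after insulin (1.99 ± 0.53, adjusted p = 0.0398), and Nr1h3 was called lower after saline (-0.52 ± 0.11, adjusted p = 0.0167). The Pdk4 call was kept without any one of colonized saline animals 1, 2 or 3 or germ-free saline animal 7 and lost without any other single array (adjusted p up to 0.141). It was at 0.11 with the adipocyte covariate and at -0.02 with the chromaffin covariate, and 7 of 10 adipocyte markers were called higher in that contrast. The Nr1h3 call was lost without germ-free saline animals 8 or 9, taken out singly, with the cortex covariate (adjusted p = 0.172) and with the compared groups alone (adjusted p = 0.0787). Of 10 glucocorticoid receptor targets 2 were called higher by the mean germ-free effect, the kinase gene Sgk1 (0.63 ± 0.07, adjusted p = 0.000363) and the phosphatase gene Dusp1 (0.64 ± 0.12, adjusted p = 0.00452), and 1 by the mean insulin effect, Dusp1 (0.67 ± 0.12, adjusted p = 0.04), beside the same 6.14% higher for germ-free and 0.255% higher for insulin over all probe sets. The insulin call of Dusp1 was kept without colonized saline animal 2 or colonized insulin animal 5 and lost without any other single array (0.57 to 0.76 over all 12). The other members of this list were not called for insulin, with mean insulin effects of -0.73 (Pdk4) to 0.69 (the metallothionein gene Mt2, ± 0.15, adjusted p = 0.0753), and the list's median was 0.05. Mt2 lay higher in insulin than in saline arrays, without overlap, in both states. Of 8 cyclic AMP and CREB targets (10 listed) 3 were called higher by the mean insulin effect, the orphan receptor genes Nr4a1 and Nr4a2 and the kinase gene Sik1 (1.24 ± 0.19, adjusted p = 0.0155), and 6 by the mean germ-free effect, against 0.255% and 6.14% of all probe sets called higher. The largest of the 6 were Ppargc1a (2.26), Pde10a (1.54), Nr4a2 (1.44) and Sik1 (1.38). Ppargc1a, also a gene of brown fat, was at 0.72 with the chromaffin covariate (adjusted p = 0.517) and at 1.05 with the adipocyte covariate (adjusted p = 0.0351). In colonized saline animals 1, 2 and 3 it measured 5.41, 8.46 and 7.16, where the adipocyte markers averaged 7.08, 10.74 and 9.76. With the cortex covariate Nr4a2 was at 0.99 (adjusted p = 0.115), and with the chromaffin covariate Nr4a2 and Sik1 were not called (adjusted p = 0.075 and 0.0589), while Pde10a was called in each alternative run. The insulin call of Sik1 was lost without germ-free saline animal 9 or germ-free insulin animals 11 or 12, and that of Nr4a1 (0.79 ± 0.15, adjusted p = 0.0471) was kept without colonized saline animals 2 or 3 or colonized insulin animal 6 alone. The call of Nr4a2 (1.94 ± 0.25, adjusted p = 0.00768) was kept without each array in turn. The medians of this list were 0.53 for insulin and 1.31 for germ-free, beside 0.01 and -0.03 over all genes.

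Likeness between genes was described by the root mean square difference of log2 values centred on each gene's own mean over the 12 arrays. For Per1, whose values spanned 1.44, the closest of 19504 other genes were Fam222a (0.147), Maff of the small MAF factors (0.162), the MAP kinase phosphatase gene Dusp16 (0.180), Usp2 (0.183) and Gmppb (0.189). For Per2, with a span of 1.53, they were Clasp2 (0.112), Ccdc33 (0.139), Lgr4 (0.153), Tnfrsf4 (0.159) and Gm3317 (0.165). For Per3, with a span of 1.30, they were Luc7l (0.132), Brwd1 (0.143), Gm14403 (0.153), Nlk (0.155) and Nbeal1 (0.158). Per1, Per2 and the 5 genes closest to each had their lowest value in colonized saline animal 2, which stood apart. Likeness without that animal was not computed. No other member was among these 5 closest genes of Per1, Per2 or Per3. Cry2 ranked 49 and Per2 ranked 131 by closeness to Per1, Nr1d2 ranked 212 by closeness to Per3, and Dbp ranked 104 by closeness to Tef. Those are the lowest ranks, and by rank most members lay far apart. The other 7 members ranked 6745 to 17986 by closeness to Per1, and the other 8 ranked 1900 to 18465 by closeness to Per3 and 7289 to 18609 by closeness to Tef. A rank depends on the gene it starts from, and Per1 ranked 243 by closeness to Cry2. By the difference itself Tef and Dbp were the closest pair (0.147), then Nr1d2 and Dbp (0.168) and Cry1 and Nr1d2 (0.224). This difference is small for any genes that vary little, whatever their pattern. Dbp spanned 0.38 and Nr1d2 0.58 log2 units, and by closeness to Dbp Tef ranked 2513 and Nr1d2 4481. The ranks and differences share the 12 arrays and describe them only.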

How the data were processed

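The authors' deposited table holds log2 intensities of 28846 rows on 12 Affymetrix arrays, made with RMA per the submitters' processing notes, which also name limma, both without a version. RMA corrects background, normalizes quantiles and summarises each probe set. No source used here says whether all arrays were normalized in 1 run. Values (2.46 to 13.9) were used as deposited. The probe annotation gave 19572 rows 1 gene symbol, and a gene was represented by its probe set of highest mean (19505 genes). Group means were fitted across all genes with limma 3.58.1 in R 4.3.3 (lmFit on group means, then the default eBayes, with 8 residual degrees of freedom and 4.08 prior ones). For each of 7 contrasts p values were Benjamini-Hochberg adjusted over 19572 probe sets, dim ones included, with a threshold of 0.05. The fit was tested on simulated data. Precision is limited by having 3 arrays a group. The p values set each difference against the spread between animals within groups, pooled over the 4 groups and moderated across genes. They do not cover differences in handling between the colonization states.

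The members and lists were chosen with earlier results of these data known. Named were all members, called genes of each list (at most 4 per list and contrast, those of largest change), and the 5 closest genes of the 3 members with the widest range. Hlf, Usp2, Rora, Clock, Mt2 and Tsc22d3 were named outside this rule, after their values were seen. Motifs were searched in RefSeq windows on both strands, and 9 of 10 members had one. Alternatives were all rows, the brighter part of the probe sets, second quantile normalization, median centring, trend and robust options, array weights, marker covariates (cortex, adipocyte, liver or chromaffin), the compared groups alone, a threshold of 0.1 and leaving out each array. No member had several probe sets, so averaging them was not run.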

Additional observations from a re-analysis of the deposited data

How the results depend on the processing

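Alternatives moved the number of clock genes called out of 10. For insulin in colonized mice the count was 0, and 1 with the brighter probe sets, second quantile normalization, trend and robust options, array weights or a threshold of 0.1 (0 to 1 without single arrays). For insulin in germ-free mice it was 1, and 2 with array weights, the cortex covariate or the compared groups alone, 0 with the chromaffin covariate (0 to 2 without single arrays). For the mean insulin effect it was 2, and 1 with the liver covariate (1 to 2 without single arrays). For germ-free after saline it was 0, and 1 with all rows, the brighter probe sets, second quantile normalization, the adipocyte covariate or a threshold of 0.1, 3 with array weights or the liver covariate (0 to 2 without single arrays). For germ-free after insulin it was 1, and 2 with the brighter probe sets, second quantile normalization or a threshold of 0.1, 3 with array weights or the compared groups alone, 0 with the adipocyte or chromaffin covariate (0 to 2 without single arrays). For the mean germ-free effect it was 3, and 0 with the cortex, adipocyte or chromaffin covariate (1 to 4 without single arrays). A threshold of 0.1 added Tef (limma adjusted p = 0.0583). The genes called also changed over the 10 alternatives other than that threshold and single arrays left out. Per2 and Per3 were each called in 7 of these, Arntl in 4, Tef in 3 and Per1 in 1. The difference of insulin effects had 0 calls in each alternative. The cause of these changes was not tested.

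Signs turned with the cortex covariate for Per1 (-0.16 after saline, -0.12 as the mean germ-free effect, 0.086 for the difference of insulin effects) and Per2 (-0.44, -0.13 and 0.62), and for that difference of Per2 also with array weights (0.35), the adipocyte (0.029), liver (0.028) and chromaffin (0.18) covariates and without single arrays (-0.36 to 0.25). With the chromaffin covariate the difference also turned for Per1 (0.0048), Nr1d2 (-0.033) and Arntl (0.028, and 0.0046 with the adipocyte covariate), as did the germ-free effect after insulin of Bhlhe40 (0.18) and Pdk4 (-0.017). Cry1 was not among the brighter probe sets.

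Over all probe sets the lowest and highest numbers of calls were 0 and 74 for insulin in colonized mice (30 in the fit reported), 9 and 545 in germ-free mice (86), 0 and 149 for their difference (7), 27 and 252 for their mean (82), 158 and 2453 for germ-free after saline (1351), 1 and 3727 after insulin (1521) and 240 and 5535 for their mean (3454), the threshold of 0.1 included. No paired analysis was possible because no replicate number is shared between groups. With 3 arrays a group, small differences could not be resolved.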
